A study of Mus musculus with 12 samples.

Results

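Oxidative phosphorylation is carried out by 4 respiratory chain complexes (I to IV) and the ATP synthase (complex V), whose subunits are encoded by nuclear and by mitochondrial DNA. The genes described here are the 85 rows, of 31017 in both count tables, whose symbol belongs to a family of subunits of complex I (Nduf, mt-Nd), II (Sdh), III (Uqcr, mt-Cytb), IV (Cox4 to Cox8, mt-Co) or V (Atp5, mt-Atp) and whose mean over the 12 libraries was at least 1 CPM (each count scaled to a common library total). Symbols of pseudogenes holding -ps were left out. In all, 96 rows matched the symbols and 11 fell below the minimum. The members are 75 nuclear and 10 mitochondrial genes: 36 nuclear and 6 mitochondrial genes of complex I, 4 nuclear genes of complex II, 8 nuclear and 1 mitochondrial gene of complex III, 11 nuclear and 3 mitochondrial genes of complex IV, and 16 nuclear genes of complex V. Just inside the minimum were mt-Co2 with a mean of 1.52 CPM and mt-Co3 with 3.13 CPM, and just outside it were mt-Atp6 with 0.829 CPM and mt-Nd4l with 0.465 CPM. The symbols sort Ndufa4 to complex I, although its protein is found with complex IV, and they take in Atp5s, which is not a subunit of the enzyme.

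The study sequenced RNA from 4T1, a mouse mammary carcinoma cell line, in 6 groups of 2 libraries. Control cells were pools of clones nucleofected with control guide RNA, and the knockout cells were single clones, named clone 1 and clone 2 here, edited at Etv4, which encodes an ETS-family transcription factor. Each was grown as a monolayer on plastic (2D) or as cells embedded in collagen I gels (3D), and the labels do not say which of 2 stated collagen concentrations a library had. The gels were digested with collagenase I before RNA was taken, whereas 2D cells were collected directly, and the 2D and 3D counts come in separate tables, so that gel, digestion and table cannot be told apart. The RNA was polyadenylated and the libraries were made with a stranded kit. The labels do not say that the 2 libraries of a group came from separate cultures, so the p-values measure the spread between these libraries, which may be technical. The clones share their control libraries in each format, and each clone is 1 clone, so a change in 1 of them cannot be told apart from a trait of that clone.

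The chain passes electrons from NADH (through complex I) and succinate (through complex II) to ubiquinone, on through complex III and cytochrome c to complex IV, where oxygen is reduced, and complexes I, III and IV pump protons across the inner mitochondrial membrane. ATP synthase uses the resulting gradient to make ATP. Mitochondrial DNA is transcribed as long precursors that are cut into single messengers, so its genes share their promoters, while the nuclear genes lie on many chromosomes and share regulators such as NRF1, GABP (an ETS factor), YY1, ERR-alpha and the PGC-1 coactivators.

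Libraries held 12277023 to 18702650 counts in 2D and 26525130 to 33210413 in 3D. The 7 markers of 4T1 carcinoma cells examined were all at 1 CPM or more in both formats, with sums of 3605 to 4677 CPM (2D) against 2667 to 3277 (3D). Of 6 leukocyte, 6 fibroblast and 5 endothelial markers, 1 of each list reached 1 CPM in either format. Their sums moved with the format, from 1.66 to 5.63 CPM (2D) against 7.46 to 10.4 (3D) for leukocytes, 3.89 to 7.33 against 18.9 to 24.6 for fibroblasts and 8.35 to 15.3 against 3.67 to 5.39 for endothelium, with Adgre1, Itgam, Col3a1, Pdgfrb and Lum at 0 in all libraries, and their part in the results was not tested. In such bulk libraries fewer cells of a type and less RNA per cell cannot be told apart. Etv4 RNA was present in every library: it was lower than in control in clone 1 in 2D (log2 change -0.64) and in 3D (-0.48) and in clone 2 in 2D (-0.69), and in the libraries labelled clone 2 in 3D it did not pass the test (-0.12, edgeR adjusted p = 0.12), which shows nothing about the edit in the gene itself. A pair of abundant predicted transcripts took different shares of the counts in the formats: Gm26917 had 1.75 to 2.03% of all counts in 2D libraries against between 10.9 and 14.95% in 3D, and Gm42418 had 0.0971 to 0.129% in 2D libraries against 1.45 to 1.95% in those of 3D. CPM below are of all counts of a library, and log2 changes are from edgeR after scaling that leaves such shares out of account, so they need not equal ratios of CPM.

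The 2 genomes moved apart between the formats. Nuclear members held 1.25 and 1.17% of all counts in control 2D, 1.20 and 1.18% in clone 1 2D, and 1.24 and 1.24% in clone 2 2D. Their 3D libraries held 0.519 and 0.522% (control), 0.498 and 0.470% (clone 1) and, for clone 2, 0.470 and 0.473%. Mitochondrial members held 0.437 and 0.457% in control 2D, 0.449 and 0.515% in clone 1 2D, and 0.366 and 0.314% in clone 2 2D. Their 3D libraries held 1.74 and 1.45% (control), 1.72 and 1.76% (clone 1) and, for clone 2, 1.53 and 1.49%. All 6 libraries of 3D thus lay below all 6 of 2D for the nuclear members and above all 6 for the mitochondrial members. The ratio of mitochondrial to nuclear counts was 0.253 to 0.437 in 2D and 2.79 to 3.74 in 3D. With Gm26917 and Gm42418 taken out of the totals, nuclear members held 1.19 to 1.28% (2D) against 0.536 to 0.614% (3D), so the formats still did not overlap. The share of Gm26917 and Gm42418 moved together with both, and its part in these shares was not tested.

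**Figure D1:**
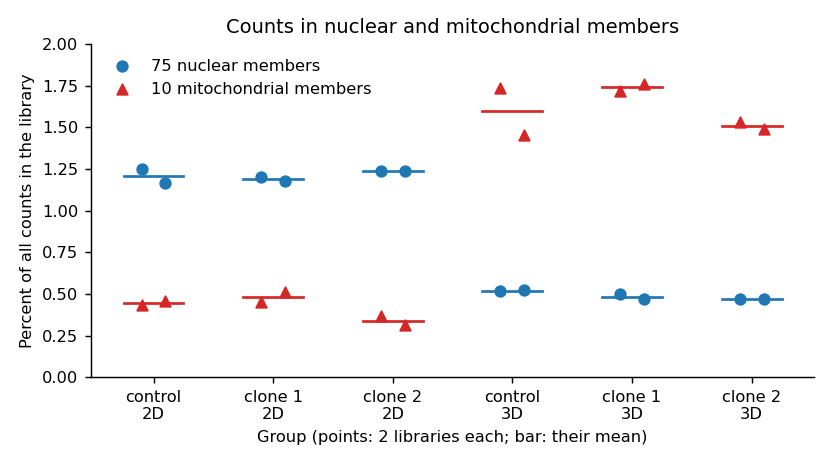
Percent of all counts (y axis) that fell in the 75 nuclear members (blue circles) and the 10 mitochondrial members (red triangles) in each of the 12 libraries, by group (x axis); bars are means of 2 libraries. Nuclear members lay at 1.17 to 1.25% (2D) against 0.470 to 0.522% (3D), and mitochondrial members at 0.314 to 0.515% (2D) against 1.45 to 1.76% (3D).

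Of the 10 mitochondrial members, 8 were higher in 3D than in 2D in control cells, and mt-Co2 and mt-Co3 were lower (edgeR's quasi-likelihood test with Benjamini-Hochberg adjusted p under 0.05). Of all 13763 genes tested, 41.6% were called higher and 35.5% lower in that comparison. In clone 1 and in clone 2, 8 mitochondrial members were higher and 1 was lower, beside 39.7 and 42.4% of all genes higher. All 3 comparisons gave the same 8 genes as higher: mt-Nd1, mt-Nd2, mt-Co1, mt-Nd3, mt-Nd4, mt-Nd5, mt-Nd6 and mt-Cytb. Of these, mt-Nd3 was below 1 CPM in every 2D library (0.139 to 0.815 CPM) and is a member through its 3D libraries alone, so its rise follows in part from the minimum and lends no support to the count.

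The rises differed widely in size. mt-Co1, a catalytic subunit of cytochrome c oxidase, rose least of the 8: it had 3761 and 3821 CPM in control 2D and 6401 and 5564 in control 3D, a log2 change of 0.70 ± 0.06 SE, adjusted p = 1.19e-09. The gene was by far the most abundant member in 2D, with 82.7 to 86.8% of the counts of all mitochondrial members, and held 35.3 to 41.2% in 3D. mt-Nd1, a core subunit of complex I, had 381 and 475 CPM in control 2D and 3369 and 2979 in 3D, a log2 change of 2.93 ± 0.11 SE, adjusted p = 1.12e-10. mt-Cytb, the one mitochondrial subunit of complex III, went from 145 and 173 to 2729 and 2365 CPM, a log2 change of 4.05 ± 0.09 SE, adjusted p = 1.04e-17. In no case did the 2D and 3D libraries of these genes overlap, in any genotype.

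The other subunits of complex I encoded in mitochondria were low in 2D and rose by over 5 on the log2 scale in control cells. mt-Nd2 had 16.9 and 20.9 CPM in control 2D and 1976 and 1343 in 3D (6.50 ± 0.26 SE, adjusted p = 4.21e-07). mt-Nd4 had 10.02 and 11.3 CPM in 2D and 615 and 501 in 3D (5.75 ± 0.10 SE, adjusted p = 1.16e-23), and mt-Nd5 had 37.8 and 47.8 in 2D and 1871 and 1467 in 3D (5.33 ± 0.20 SE, adjusted p = 8.35e-08). mt-Nd6, the member transcribed from the light strand, whose messenger is known to be left largely without a poly(A) tail, had 7.999 and 12.5 CPM in 2D and 404 and 311 in 3D (5.16 ± 0.20 SE, adjusted p = 4.25e-09). Its neighbours mt-Nd5 and mt-Cytb lie on the other strand, and the strand setting of the counting is not given in the sources used here. Reads of that strand may thus be among the counts of mt-Nd6, which was not tested. Across the genotypes the log2 rise ran from 6.16 to 6.50 for mt-Nd2, from 5.28 to 5.75 for mt-Nd4, from 5.33 to 5.71 for mt-Nd5 and from 5.16 to 6.43 for mt-Nd6. Per kilobase of exon, the median over the 6 libraries of 2D was 2436 CPM for mt-Co1, 432.0 for mt-Nd1, 139 for mt-Cytb, 20.8 for mt-Nd5, 18.3 for mt-Nd2, 12.7 for mt-Nd6 and 8.08 for mt-Nd4. In 3D it was 4006 for mt-Co1, 3316 for mt-Nd1, 2121 for mt-Cytb, 1584 for mt-Nd2, 969 for mt-Nd5, 772 for mt-Nd6 and 413 for mt-Nd4, so these 7 genes lay much closer together in 3D than in 2D. By this measure all 7 then stood above the most abundant nuclear member per kilobase, Atp5b with 213 CPM, whereas in 2D Atp5b (545) stood above all of them but mt-Co1. The exon length joins the exons of all annotated transcripts of a gene, 4237 bases for Atp5b. It can exceed the length of a single messenger and so lower the value of a nuclear gene. The rank of Atp5b against the mitochondrial genes, nearest for mt-Nd4 in 3D, depends on this length.

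mt-Co2, mt-Co3 and mt-Nd3 stayed below 10 CPM in both formats, as did mt-Atp6 and mt-Nd4l below the minimum. mt-Co2, another catalytic subunit of complex IV, had 48 and 33 counts (3.46 and 2.29 CPM) in control 2D and 31 and 28 (1.14 and 0.991 CPM) in control 3D. mt-Co3 had 65 and 73 counts in control 2D and 21 and 34 in 3D, and its log2 change was -2.25 ± 0.29 SE, adjusted p = 6.98e-08. mt-Nd3 had 2 and 2 counts in control 2D and 202 and 207 in 3D (5.69 ± 0.42 SE, adjusted p = 1.00e-12). mt-Co2 was called lower in 3D in control (-1.38 ± 0.37 SE, adjusted p = 0.0015) but not in clone 1 (-0.75, adjusted p = 0.09) or clone 2 (0.06, adjusted p = 0.91), and its 2D libraries differed among themselves, from 0.765 to 3.46 CPM. Sequence shared with nuclear DNA differed between the mitochondrial genes. In the GENCODE M21 transcripts (GRCm38, the mm10 build), 100% of the 50-base windows of mt-Co2, 99.9% of mt-Co3, 98.0% of mt-Nd3, 99.5% of mt-Atp6 and 98.8% of mt-Nd4l also occur in another annotated gene. The shares were 62.2% for mt-Nd4, 51.1% for mt-Co1, 8.19% for mt-Nd2, 7.61% for mt-Nd5 and 0 for mt-Nd1, mt-Nd6 and mt-Cytb. mt-Atp8, below the minimum with a mean of 0.0970 CPM and 30 counts over all libraries, shares 0% of its windows with other annotated genes. Sequence between annotated genes was not searched, so a copy there would be missed. mt-Atp8 starts between mt-Co2 and mt-Atp6, whose copies are neighbours on chromosome 1. The copies of mt-Co2 (Gm28661), mt-Co3 (Gm28437), mt-Atp6 (Gm10925), mt-Nd3 (Gm28438), mt-Nd4l (Gm10222) and part of mt-Nd4 (Gm28439) lie side by side on the minus strand between chr1:24611535-24612410 and chr1:24614885-24615565, and they are annotated as unprocessed pseudogenes. None of these symbols has a row in the count tables. How reads that match both places were counted is not given in the sources used here, and the part of this sharing in the low counts was not tested.

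The sequences show how close the copies are, and capitals mark the bases that differ within a pair. The first pair holds the start of mt-Nd3 (chrM:9459-9518, plus strand) and the matching bases of its copy Gm28438 (within chr1:24612775-24613119, minus strand), which differ at 1 of 345 aligned bases. The next pair holds bases 816 to 875 of mt-Co1 (chrM:6143-6202, plus strand) and of the copy Gm13340 (within chr2:22588103-22589647, minus strand), which differ at 37 of 1545. Another copy of part of mt-Co1, Gm29216 (chr1:24615706-24616197, minus strand), differs at 6 of 492 aligned bases and is not shown. All 6 lie within bases 1054 to 1113 of mt-Co1. The copy of mt-Co2 has no difference over 681 aligned bases and that of mt-Co3 none over 783, so no line is shown for them.
mt-Nd3: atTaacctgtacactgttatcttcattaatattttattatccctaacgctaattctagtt
Gm28438: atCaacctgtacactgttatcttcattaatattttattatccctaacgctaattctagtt
mt-Co1: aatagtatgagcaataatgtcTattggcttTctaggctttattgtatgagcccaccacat
Gm13340: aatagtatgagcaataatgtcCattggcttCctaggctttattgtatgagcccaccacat

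**Figure D2:**
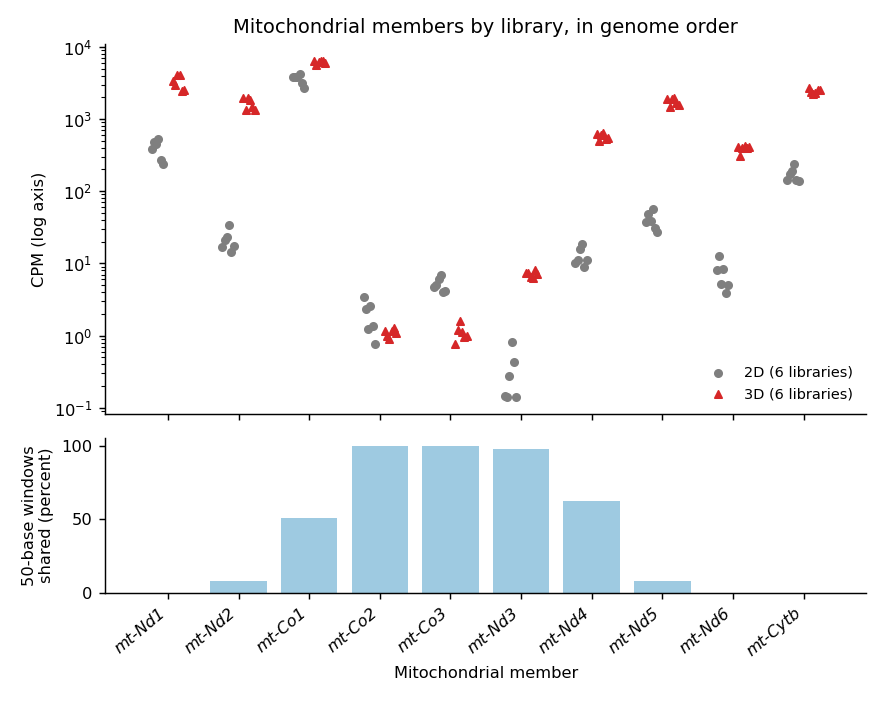
Upper panel: CPM (log axis) of the 10 mitochondrial members in the 6 libraries of 2D (grey circles) and the 6 of 3D (red triangles), in genome order; lower panel: percent of each gene's 50-base windows that occur in another annotated gene. mt-Co2, mt-Co3 and mt-Nd3, with 98.0 to 100% of windows shared, are the members below 10 CPM in all 12 libraries.

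Most nuclear members were lower in 3D. In control cells 69 of 75 were called lower, 3 higher and 3 did not pass the test, with a median log2 change of -1.14, beside 0.10 over all genes tested. In clone 1, 71 were lower and 2 higher (median -1.20), and in clone 2, 70 were lower and 1 higher (median -1.44). All genes tested were called lower in 35.3% of cases in clone 1 and 37.0% in clone 2. In all 3 genotypes 69 nuclear members were lower, and 0 were higher. The change was more than 2-fold down in 43 members in control cells and more than 4-fold down in 6. How many of all genes tested were lower in all 3 genotypes, or fell by these amounts, was not counted. Across the 75 members the change showed little relation to exon length (Spearman's rho -0.05), to the mean CPM (-0.08) or to the percent of windows shared with other genes (-0.09) in control cells, which are descriptions across genes that share libraries. With all genes split into 5 equal groups by exon length, 49 members fall in the shortest group, where their median was -1.12 and that of all genes -0.02. The 48 members that overlap no other annotated gene had a median of -1.07, with 44 called lower.

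The complexes were alike in direction. In control cells 33 of 36 nuclear genes of complex I, 4 of 4 of complex II, 7 of 8 of complex III, 11 of 11 of complex IV and 14 of 16 of complex V were lower, with medians of -1.19, -0.94, -1.16, -0.93 and -1.25. In clone 1 the medians were -1.22, -0.98, -1.29, -0.94 and -1.20, and in clone 2 they were -1.52, -1.27, -1.61, -1.22 and -1.57. Complexes II and IV thus had the least negative medians in each genotype, and the order was not tested. By sums of CPM, which weigh abundant genes more, complex IV in control 3D had 48.2% of its level in 2D, complex II 46.9%, complex I 43.7%, complex III 42.0% and complex V 40.7%.

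**Figure D3:**
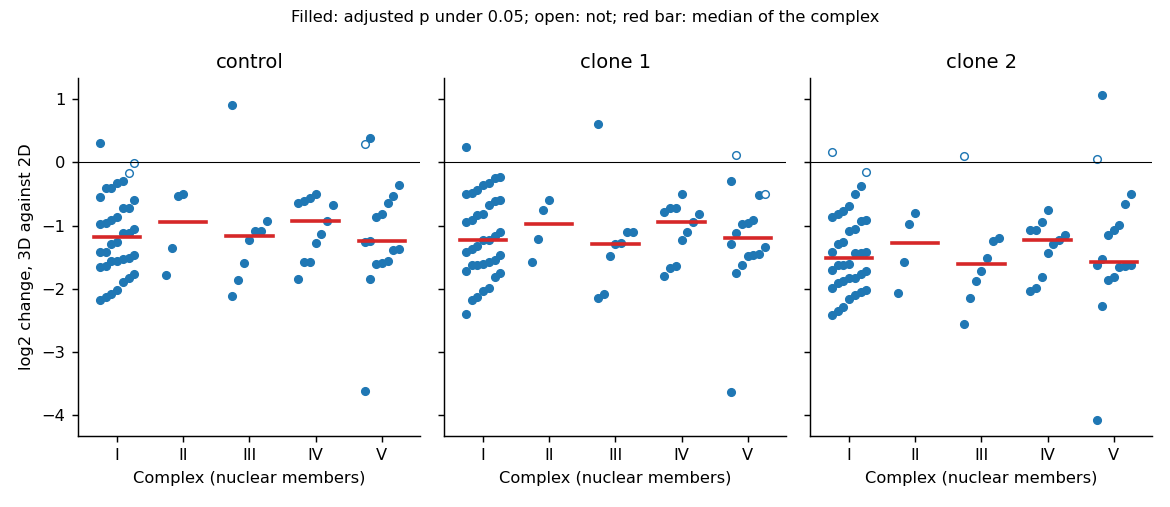
log2 change of each of the 75 nuclear members from 2D to 3D (y axis), by complex (x axis), in control, clone 1 and clone 2; filled points passed an adjusted p of 0.05, open points did not, and red bars are medians. The medians lay between -0.93 and -1.25 in control and between -1.22 and -1.61 in clone 2, and Atp5k (complex V) lay apart at -3.62, -3.63 and -4.07.

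In complex I, 33 of 36 nuclear genes fell in control, by amounts that varied among core and among accessory subunits. Ndufv1, the flavoprotein that oxidises NADH, had 151 and 137 CPM in control 2D and 50.8 and 53.4 in 3D (-1.42 ± 0.07 SE, adjusted p = 9.69e-17). Ndufs1, the largest iron-sulfur subunit, had 193 and 193 CPM in 2D and 66.3 and 64.5 in 3D (-1.52 ± 0.05 SE, adjusted p = 1.98e-19). For both genes every 3D library lay below every 2D library of the same genotype. Other core subunits fell less, with -0.73 for Ndufv2 and -0.55 for Ndufs7. The 3 largest falls of the complex were in accessory subunits of the membrane arm, though others of that kind, such as Ndufb11 (-0.32) and Ndufc1 (-0.29), fell little. Ndufb2 went from 14.99 and 16.96 to 3.39 and 3.47 CPM (-2.17 ± 0.16 SE, adjusted p = 1.84e-12), Ndufb6 from 53.04 and 44.8 to 10.8 and 10.9 (-2.13 ± 0.11 SE, adjusted p = 3.84e-16) and Ndufb8 from 111 and 103 to 25.3 and 23.95 (-2.08 ± 0.07 SE, adjusted p = 4.52e-20). Smim27, annotated on the opposite strand, overlaps 39.0% of the exon length of Ndufb6, and the strand setting of the counting is not given in the sources used here. The accessory subunit Ndufa9 fell by 1.77 on the log2 scale in control. The subunit Ndufa8 went the other way, with 33.7 and 37.9 CPM in control 2D and 41.9 and 44.1 in 3D (0.31 ± 0.09 SE, adjusted p = 0.0047), and with a rise called in clone 1 (0.25 ± 0.09 SE, adjusted p = 0.019) but not in clone 2 (0.16, adjusted p = 0.11).

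In complex II, which is also the succinate dehydrogenase of the citric acid cycle, the catalytic Sdha and the membrane anchor Sdhc fell less than the iron-sulfur subunit Sdhb and the anchor Sdhd. Sdha had 148 and 151 CPM in control 2D and 101 and 104 in 3D (-0.50 ± 0.06 SE, adjusted p = 2.16e-08), whereas Sdhd had 218 and 198 in 2D and 56.3 and 60.6 in 3D (-1.78 ± 0.07 SE, adjusted p = 2.63e-19). The log2 changes in control were -1.35 for Sdhb and -0.53 for Sdhc, both called, and the difference between subunits was not tested. In complex III, the core proteins Uqcrc1 (-1.09 ± 0.06 SE, adjusted p = 1.11e-15) and Uqcrc2 (-1.09 ± 0.06 SE, adjusted p = 2.33e-15) and the Rieske iron-sulfur protein Uqcrfs1 (-1.59 ± 0.07 SE, adjusted p = 5.58e-17) fell in control, and the small subunit Uqcr11 fell most, from 118 and 103 to 25.01 and 24.4 CPM (-2.11 ± 0.08 SE, adjusted p = 3.33e-19). Uqcrq, another small subunit, was the one nuclear gene of this complex that rose: it had 21.2 and 22.6 CPM in control 2D and 41.3 and 38.1 in 3D (0.90 ± 0.24 SE, adjusted p = 0.0063). Its 2D libraries were uneven, with 21.1 and 36.5 CPM in clone 2, where its change did not pass the test (0.10, adjusted p = 0.71).

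In complex IV all 11 nuclear genes fell in each genotype. Cox4i1, the regulatory subunit, had 420.4 and 425 CPM in control 2D and 139 and 138 in 3D (-1.57 ± 0.05 SE, adjusted p = 6.44e-20). Cox5a (-1.28) and Cox5b (-1.57) fell by over 2-fold in control and Cox6c (-0.67) by less. Of the isoforms, the ubiquitous ones made up the counts. Cox6a1, Cox6b1, Cox7a2, Cox7b and Cox8a were each expressed in every library, with a lowest value of 31.1 CPM (Cox7a2), while their tissue-restricted counterparts Cox6a2, Cox6b2, Cox7a1, Cox7b2, Cox8b and Cox8c were below the minimum, as were Cox4i2 and Ndufa4l2, the isoforms known from hypoxic or lung tissue. The highest value of these was 1.21 CPM, for Cox7a1 in 3D, and Cox7b2 had no count in any library. Within the Cox7a family, Cox7a2 fell from 141 and 135 to 37.7 and 37.1 CPM in control (-1.84 ± 0.06 SE, adjusted p = 3.40e-20), and Cox7a2l, which helps to join complexes III and IV, from 169 and 162 to 104 and 107 (-0.61 ± 0.06 SE, adjusted p = 1.15e-10). Ndufa4 fell by 0.97 in control, and all its 3D libraries lay below its 2D libraries.

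In complex V, Atp5b, Atp5a1 and Atp5c1 had the highest mean CPM of the nuclear members. Atp5b, the beta subunit, had 2366 and 2134 CPM in control 2D and 921 and 923 in 3D (-1.24 ± 0.05 SE, adjusted p = 1.53e-18). Atp5a1 (alpha) fell by 1.38, Atp5c1 (gamma) by 1.57 and Atp5o (the stalk protein OSCP) by 1.39 on the log2 scale, all called. The 3 genes for the same subunit c of the rotor ring fell by different amounts: Atp5g1 from 119 and 104 to 42.6 and 47.7 CPM (-1.26 ± 0.08 SE, adjusted p = 1.61e-14), Atp5g2 from 108 and 87.7 to 71.8 and 76.2 (-0.36 ± 0.08 SE, adjusted p = 1.24e-04) and Atp5g3 from 138 and 133 to 87.9 and 93.1 (-0.54 ± 0.07 SE, adjusted p = 3.68e-08). In Atp5g2, 38.3% of the 50-base windows occur in other annotated genes, so its counts are less certain. Atp5k, which encodes the small subunit e that joins pairs of the enzyme, stood apart from the other nuclear members: it had 82.1 and 76.9 CPM in control 2D and 6.604 and 5.98 in control 3D (-3.62 ± 0.11 SE, adjusted p = 7.01e-21). In clone 1 it went from 95.6 and 93.4 to 7.02 and 7.29 CPM (-3.63 ± 0.11 SE, adjusted p = 2.71e-21) and in clone 2 from 94.1 and 75.6 to 4.78 and 5.99 (-4.07 ± 0.11 SE, adjusted p = 5.20e-22). It overlaps no other annotated gene, and 0.603% of its windows are shared. Atp5d (delta) rose in control, from 88.5 and 101 to 119.9 and 120.3 CPM (0.39 ± 0.06 SE, adjusted p = 3.61e-06), while in clone 1 (0.11) and in clone 2 (0.05) its change did not pass the test. Atp5s, not an enzyme subunit, was the 1 nuclear member called higher in clone 2 (1.07 ± 0.25 SE, adjusted p = 3.56e-04), at 1.66 to 5.32 CPM over all libraries, and it is named after its values were seen.

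Subunits that the symbols miss were measured beside the members. Cytochrome c (Cycs), the electron carrier between complexes III and IV, went from 134 and 139 CPM in control 2D to 23.5 and 23.7 in 3D, a log2 change of -2.49 ± 0.07 SE, adjusted p = 2.85e-22. Cyc1, the cytochrome of complex III (-1.12 ± 0.08 SE, adjusted p = 9.76e-13), and Atpif1, the inhibitor of ATP synthase (-1.21 ± 0.09 SE, adjusted p = 8.92e-13), fell as well. Usmg5 of complex V changed by -0.14 ± 0.06 SE, adjusted p = 0.04, and Ndufab1 of complex I did not pass the test (0.06 ± 0.10 SE, adjusted p = 0.56).

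Other mitochondrial genes encoded in the nucleus were counted in lists in the same comparison in control cells. There 41.6% of all genes tested were called higher and 35.5% lower. Of 77 tested genes of the mitochondrial ribosome, 70 were lower and 1 higher (median -1.16). Of 45 tested assembly factors, 40 were lower (median -1.07), and of 13 genes of the outer membrane and import machinery, 12 were lower and Vdac1 was higher (median -1.47). In the citric acid cycle and pyruvate oxidation 15 of 18 were lower and 2, Mdh2 and Ogdh, higher (median -0.73). Of 22 tested genes that copy, transcribe or process mitochondrial DNA and RNA, 17 were lower and 2 higher (median -0.99). Among them Tfam, which packages mitochondrial DNA, changed by -1.05 ± 0.08 SE, adjusted p = 2.85e-12, Lrpprc, which stabilises mitochondrial messengers, by -1.17 ± 0.05 SE, adjusted p = 9.89e-18, and its partner Slirp by -5.08 ± 0.15 SE, adjusted p = 3.34e-21, while Polrmt, the mitochondrial RNA polymerase, did not pass the test (-0.20 ± 0.09 SE, adjusted p = 0.054). The regulators of the nuclear genes were divided, with 5 of 9 tested higher and 4 lower, too few to set apart from the shares over all genes. Nrf1 fell (-0.74 ± 0.07 SE, adjusted p = 7.21e-10), Esrra fell (-0.64 ± 0.11 SE, adjusted p = 8.47e-06) and Gabpa fell slightly (-0.20 ± 0.06 SE, adjusted p = 0.007), and Myc (1.12 ± 0.06 SE, adjusted p = 2.50e-15) and Pprc1 (1.14 ± 0.06 SE, adjusted p = 2.43e-15) rose.

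Promoters were read for 62 of the 75 nuclear members in the RefSeq table (GRCm38.p6, 250 bases before to 50 after each start). The ETS motif CCGGAAGT occurred on either strand in 5 members (8.06%), beside 4.31% of all 27025 genes in the table. The NRF1 motif GCGCATGC, which overlaps its own reverse complement, occurred in 10 (16.1%), beside 3.05%, and the YY1 motif AAGATGGC in 9 (14.5%), beside 3.19%. The ETS motif is of the kind that ETS factors bind, and its 5 carriers were Atp5h, Cox8a, Ndufs3, Uqcr11 and Uqcrh. All 5 were lower in 3D in control, with a median of -1.41, beside 53 of the 57 without, with a median of -1.12. Of the 10 with the NRF1 motif, 9 were lower (median -0.91), beside 49 of 52 without it (-1.19). Of the 9 with the YY1 motif 8 were lower (median -0.87), beside 50 of 53 without (-1.14). Uqcr11 carries the NRF1 motif besides the ETS motif. Of the members that rose in control, Atp5d carries none of these motifs and Uqcrq is not among the 62. Ndufa8, which also rose, and Atp5k, with the largest fall, both carry the NRF1 motif. Their windows and those of Uqcr11 and Atp5h (ETS) are shown 5′ to 3′ on the strand of the gene, all on the minus strand, with motifs or their reverse complements in capitals, at chr5:108434420-108434469, chr2:36049339-36049366, chr10:80406860-80406907 and chr11:115419931-115419978. A match is a description of the letters and not a bound site.
Atp5k: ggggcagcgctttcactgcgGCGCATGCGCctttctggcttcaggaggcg
Ndufa8: gcttgcgcgtcgctggagacGCATGCGC
Uqcr11: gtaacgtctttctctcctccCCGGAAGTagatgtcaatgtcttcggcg
Atp5h: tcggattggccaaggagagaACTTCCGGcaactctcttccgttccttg

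The next comparisons set each knockout clone against control within a format, so that plastic and gel are not mixed. The labels do not say that control and clone libraries shared a collagen concentration or a preparation. In clone 1 in 2D, 14 of 75 nuclear members were higher and 13 lower (median log2 change 0.05), beside 19.7% higher and 19.9% lower of all genes tested. In clone 1 in 3D, 9 were higher and 15 lower (median -0.03), beside 22.0 and 23.0%. The counts in 2D are near the shares over all genes, and in 3D fewer members were higher than that share. Under other scalings the split in 3D was 12 higher and 13 lower (DESeq2's size factors), 13 and 12 (scaled without Gm26917, Gm42418 and mitochondrial genes) and 13 and 12 (scaled without the members), so no direction is given for it. Without replicate 1 or replicate 2 of control 3D, or replicate 2 of clone 1 3D, the 24 calls in 3D became 13, 15 and 13. In 12 members the call had the same direction in both formats, and in 0 it was opposite. The matching counts over all genes tested were not made. The largest rises were in complex I. Ndufv2, the flavoprotein partner of Ndufv1, had 151 and 137 CPM in control and 206 and 192 in clone 1 in 2D (0.51 ± 0.07 SE, adjusted p = 1.62e-06), and in 3D 85.3 and 83.5 in control against 116 and 96.3 (0.41 ± 0.07 SE, adjusted p = 2.01e-05). Ndufb10 was next in 2D (0.33 ± 0.09 SE, adjusted p = 0.004), before Cox8a (0.32 ± 0.06 SE, adjusted p = 3.83e-05), and in 3D the largest rise was in Ndufa1, from 10.4 and 11.5 to 15.3 and 14.5 CPM (0.53 ± 0.11 SE, adjusted p = 3.08e-04), followed by Ndufv2 and Ndufa11 (0.33 ± 0.09 SE, adjusted p = 0.0043).

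Of the 16 nuclear genes of complex V, 5 were lower and 3 higher in clone 1 in 2D, and 6 were lower and 2 higher in 3D. Atp5j2, subunit f, was higher in both formats (0.29 and 0.27). Atp5h, subunit d of the stator, had 166 and 142 CPM in control and 118 and 110.3 in clone 1 in 2D (-0.39 ± 0.07 SE, adjusted p = 1.00e-04), and in 3D 85.9 and 83.1 in control against 57.3 and 52.03 (-0.55 ± 0.07 SE, adjusted p = 5.70e-07), so the libraries of control and clone 1 did not overlap in either format. Atp5o had 224 and 182 CPM in control against 141 and 138 in clone 1 in 2D (-0.50 ± 0.07 SE, adjusted p = 4.60e-06) and changed by -0.22 ± 0.07 SE, adjusted p = 0.017 in 3D. Atp5g1 changed by -0.29 ± 0.08 SE, adjusted p = 0.0031 in 2D and -0.33 ± 0.08 SE, adjusted p = 0.0011 in 3D. Ndufb4, an accessory subunit of complex I, fell most in 2D, from 23.8 and 16.3 to 10.2 and 11.9 CPM (-0.82 ± 0.17 SE, adjusted p = 3.52e-04), with the control libraries far apart. Ndufc1 was lower in both formats (-0.40 and -0.42) and Atp5l in 3D (-0.42), all called.

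In clone 2 most of the called members were higher than control in 2D, and all of them were lower in 3D. In 2D, 23 nuclear members were higher and 7 lower (median 0.10), beside 18.8% higher and 14.9% lower of all genes. The split in 2D was 19 higher and 10 lower when scaled without Gm26917, Gm42418 and mitochondrial genes, and 20 and 10 when scaled without the members. In 3D, 30 were lower (median -0.17), beside 17.4%, and 0 were higher, beside 11.8%. At an unadjusted p under 0.05, 35 were lower and 0 higher in 3D, and DESeq2 called 23 lower and 0 higher. In 3D the falls took in 11 of 36 genes of complex I, 3 of 4 of II, 2 of 8 of III, 7 of 11 of IV and 7 of 16 of V. The count in 3D was 18 without replicate 2 of control and 18 without replicate 1 of clone 2. The direction was the same in both formats in 5 members, and opposite in 7. How often all genes tested turned in this clone was not counted, so this is not read as particular to the members. The largest rises in 2D were in Ndufs5, an accessory subunit of complex I, from 24.2 and 24.3 to 38.9 and 39.9 CPM (0.77 ± 0.10 SE, adjusted p = 1.25e-06), the hinge protein Uqcrh, from 115 and 114 to 142 and 146 (0.40 ± 0.06 SE, adjusted p = 7.70e-06), and Uqcr11 (0.40 ± 0.07 SE, adjusted p = 6.49e-05). The largest falls in 2D were in Ndufb4 (-0.48 ± 0.16 SE, adjusted p = 0.024), Ndufs1 (-0.39 ± 0.05 SE, adjusted p = 2.34e-06) and Sdhc (-0.34 ± 0.07 SE, adjusted p = 3.76e-04). In 3D, Ndufa10 fell most, from 94.7 and 88.1 to 56.8 and 52.7 CPM (-0.80 ± 0.06 SE, adjusted p = 2.79e-11), then Sdhc, from 68.5 and 73.97 to 42.2 and 44.4 (-0.78 ± 0.07 SE, adjusted p = 1.03e-09), and Ndufs1, from 66.3 and 64.5 to 40.6 and 39.96 (-0.76 ± 0.06 SE, adjusted p = 7.27e-11). No nuclear or mitochondrial member was called in 1 direction in both clones in both formats. Over all genes tested 442 of 13763 were, too small a share to set the 85 members apart from it. Of the 5 members with the ETS motif in their promoter, 3 were higher in clone 2 in 2D and 2 lower in 3D (medians 0.26 and -0.03), beside 16 higher and 4 lower in 2D and 20 lower in 3D of the 57 without it (0.10 and -0.16). In clone 1 their medians were 0.10 in 2D and 0.15 in 3D, beside 0.03 and -0.03 without the motif.

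Many of the largest changes in the clones moved with the chromosome a gene lies on. Ndufa10, Sdhc, Ndufs1 and Cox5b are among the 6 nuclear members on chromosome 1, where the median over 779 tested genes was -0.53 in clone 2 in 3D and -0.29 in 2D, and the medians of these 6 members were -0.74 and -0.24. All 6 were called lower in clone 2 in 3D, and 5 of them in 2D. In clone 1, the median of chromosome 11, with Atp5h and Atp5g1, was -0.38 in 2D and -0.43 in 3D, that of chromosome 16, with Atp5o, Ndufb4 and Atp5j, was -0.35 and -0.32, and that of chromosome 17, with Ndufv2, Ndufb10 and Ndufa11, was 0.23 and 0.26. The medians of all nuclear members there were -0.20 and -0.30 (chromosome 11), -0.50 and -0.31 (16) and 0.23 and 0.13 (17). Uqcrq on chromosome 11 and Ndufa7 and Ndufv3 on chromosome 17 were called in neither format in clone 1. Across the 75 nuclear members, Spearman's rho between a member's change and the median of its chromosome was 0.63 in clone 1 in 2D and 0.63 in 3D, and 0.58 and 0.53 in clone 2. These are descriptions across genes that share libraries and chromosomes. With each chromosome's median taken out of the fit, Cox5b in clone 2 changed by 0.05 in 2D and Atp5g1 in clone 1 by 0.09 in 2D and 0.12 in 3D, each with the sign turned, while Ndufv2 in clone 1 kept 0.28 in 2D, called, and Atp5h changed by -0.01, not called. The number of nuclear members called in clone 2 in 2D was then 16 in place of 30, with 15 higher and 1 lower, and in clone 2 in 3D it was 28 in place of 30, all lower. Whether the copies of these chromosomes differ between the clones was not tested.

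**Figure D4:**
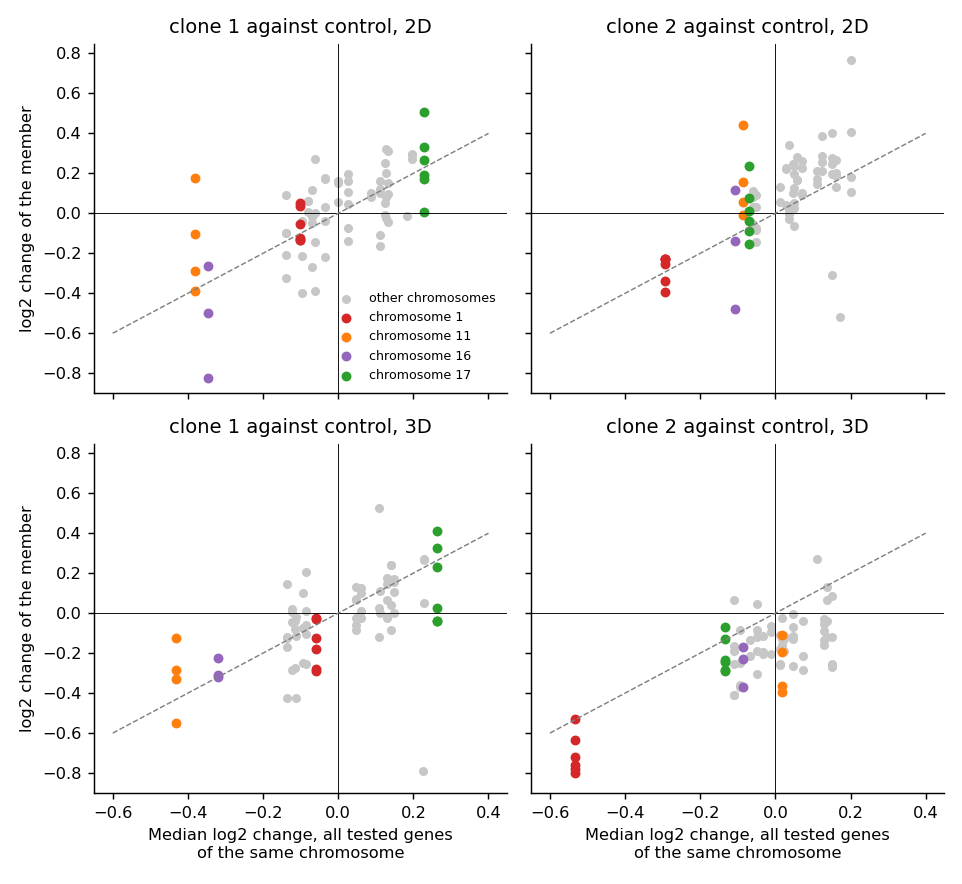
log2 change of each nuclear member against control (y axis) over the median log2 change of all tested genes on its chromosome (x axis), for each clone in 2D and 3D; the dashed line is equality. The 6 members on chromosome 1 (red) lie at the lower left in clone 2, and the members on chromosomes 11, 16 and 17 lie apart in clone 1.

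Whether the knockout changes differed between formats was tested as an interaction. For the mean of both clones, 13 of 75 nuclear members passed, all with a lower change in 3D than in 2D, and 0 of 10 mitochondrial members did (4 had an unadjusted p under 0.05, and DESeq2 called 1). The share over all genes tested was 5.32% lower and 2.87% higher. The 13 were Ndufs5, Ndufa10 and Ndufv2 of complex I, Sdhc of II, Uqcrb, Uqcrc2 and Uqcrh of III, Cox5b, Cox6a1, Cox6c and Cox8a of IV, and Atp5b and Atp5d of V. The count was 8 when scaled without Gm26917, Gm42418 and mitochondrial genes, and 8 with a trend on exon length removed. It also rested on single libraries: it was 21 without replicate 1 of control 2D, 7 without replicate 1 and 2 without replicate 2 of control 3D, 3 without replicate 2 of clone 1 3D and 7 without replicate 1 of clone 2 3D. With each clone tested alone, a test chosen after seeing the data, 0 nuclear members passed in clone 1 (median -0.04) and 42 in clone 2, all lower in 3D (median -0.29). All genes tested were lower in 14.8% and higher in 7.38% of cases in clone 2, and lower in 3.46% and higher in 3.57% in clone 1. In clone 1, 15 nuclear members had an unadjusted p under 0.05 and DESeq2 called 0. In clone 2 DESeq2 called 29, all lower, and edgeR called 33 with the chromosome medians taken out. Leaving out each library in turn gave 25 to 43 calls in clone 2. The lowest were 25 without replicate 2 of control 3D, 25 without replicate 1 of clone 2 3D, and 28 without replicate 2 of clone 1 3D. Both tests use the same control libraries, and the difference between the clones was tested in neither.

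Several of the 13 members were higher than control in clone 2 in 2D and lower in 3D. Cox8a, a small subunit of complex IV, had 205 and 200.2 CPM in the 2D libraries of control, 242 and 249 in those of clone 1 and 229 and 234 in those of clone 2. Its 3D libraries had 121 and 130.4 CPM (control), 146 and 135 (clone 1) and 111 and 109 (clone 2). In clone 2 it was thus higher than control in 2D (0.26 ± 0.06 SE, adjusted p = 4.86e-04) and lower in 3D (-0.25 ± 0.06 SE, adjusted p = 8.30e-04), while in clone 1 it was higher in both (0.32 and 0.24, both called). Ndufv2 likewise changed by 0.24 ± 0.07 SE, adjusted p = 0.0091 in clone 2 in 2D and by -0.29 ± 0.07 SE, adjusted p = 0.0023 in 3D. Cox6a1, another small subunit of complex IV, changed by 0.28 ± 0.07 SE, adjusted p = 0.0015 and -0.21 ± 0.07 SE, adjusted p = 0.015 in clone 2, and its interaction was -0.36 ± 0.08 SE, adjusted p = 0.0055. Ndufs5 had the largest interaction (-0.51 ± 0.13 SE, adjusted p = 0.011): it was higher in clone 2 in 2D, and in 3D its change did not pass the test (0.07, adjusted p = 0.67). For Ndufa10, lower in clone 2 in both formats, the interaction was -0.37 ± 0.07 SE, adjusted p = 8.72e-04.

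**Figure D5:**
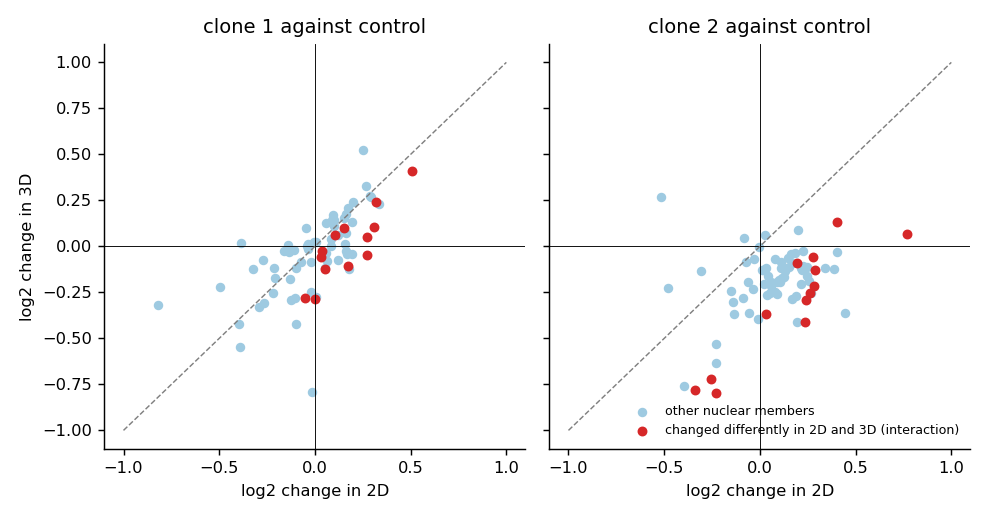
log2 change of each of the 75 nuclear members against control in 3D (y axis) over that in 2D (x axis), for clone 1 and clone 2; the dashed line is equality and red points are the 13 members whose changes differed between the formats. In clone 2 most points lie below the line, and the median falls from 0.10 (2D) to -0.17 (3D).

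Fewer mitochondrial members were called between knockout and control than between formats, and so were fewer of all genes tested. All genes were called higher and lower in 41.6 and 35.5% of cases between formats in control. Against control in 2D the shares were 19.7 and 19.9% (clone 1) and 18.8 and 14.9% (clone 2). In 3D they were 22.0 and 23.0% (clone 1) and 11.8 and 17.4% (clone 2). In clone 1, mt-Nd4 was higher in 2D (0.72 ± 0.14 SE, adjusted p = 3.02e-04) and in 3D (0.24 ± 0.07 SE, adjusted p = 0.0055), mt-Cytb in 2D (0.46 ± 0.09 SE, adjusted p = 3.42e-04) and mt-Nd1 in 3D (0.46 ± 0.10 SE, adjusted p = 0.003). In clone 2, mt-Nd1 was lower in 2D, with 274 and 237 CPM beside 381 and 475 in control (-0.67 ± 0.11 SE, adjusted p = 4.94e-04), and in 3D, with 2415 and 2500.4 beside 3369 and 2979 (-0.43 ± 0.10 SE, adjusted p = 0.0072). The libraries of mt-Nd1 in clone 2 and control did not overlap in either format. mt-Co1, mt-Co2 and mt-Nd6 were also lower in clone 2 in 2D (-0.30, -1.34 and -1.16). These counts rest on few genes: without single libraries they ran from 1 to 6 in clone 1 in 3D and from 0 to 3 in clone 2 in 3D, and the 2 calls in clone 1 in 2D became 4 without either library of control 3D. For clone 1 in 3D the count was 6 without replicate 1 of control, 1 without its replicate 2 and 1 without replicate 2 of clone 1, and for clone 2 in 3D it was 0 without replicate 1 of clone 2 and 3 without replicate 2 of control. In clone 2 in 2D the 4 calls became 2 without its replicate 2. By the interaction in each clone alone, the change of mt-Cytb was lower in 3D in clone 1 (-0.55), and those of mt-Co1 (0.28) and mt-Nd6 (1.27) were higher in clone 2, where the 2 calls became 0 without replicate 2 of its 2D libraries or without either of its 3D libraries.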

How the data were processed

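RNA from 12 libraries was analysed from 2 tables of raw read counts per gene symbol, deposited by the authors for 2D and 3D. The submitters' processing notes name STAR 2.7.9a and featureCounts, besides Cell Ranger 3.0.0, FastQC 0.11.9, R 4.1.1 and the mm10 build, without the role of each, and the strand setting is not given in the sources used here. The 2 tables were matched on gene symbols. Members needed a mean of 1 CPM. With edgeR 4.0.16 in R 4.3.3, genes were kept by filterByExpr, libraries scaled by TMM, and 6 group means fitted with the robust quasi-likelihood test, adjusted by Benjamini-Hochberg over 13763 genes. All 85 members passed the filter, and 8 of the 96 matching rows did not. The biological coefficient of variation was 4.51%, with 6 residual degrees of freedom. SEs were taken as the change divided by the square root of the F value. The code was tested on simulated data.

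Members, gene lists and comparisons were chosen with earlier results of these data known. The text names all mitochondrial members, a set of core subunits and isoforms, subunits that the symbols miss, and the 3 nuclear members with the largest called change in each direction and comparison among those of at least 5 CPM, and 1 gene of this choice is not reported here. The 13 members that passed the interaction and the members on chromosomes 1, 11, 16 and 17 were added after their values were seen, as were Ndufs7, Ndufb11 and Atp5j2. Symbols were placed on GENCODE M21 (30449 of 31017, 98.2%). Shared sequence was counted as windows of 50 bases that occur in transcripts of another gene. Alternatives were DESeq2 1.42.0, other scalings and filters, a trend on exon length, chromosome medians, and each library left out. Same-numbered libraries were not treated as pairs. Replicates differed by more than sampling noise, so none was counted as a duplicate.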

Additional observations from a re-analysis of the deposited data

Results flagged for a closer look

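For 13 nuclear members the change from control to knockout, as the mean of both clones, differed between 3D and 2D by the interaction test in edgeR (adjusted p between 0.00087 and 0.047), and in each the change was lower in 3D. The number was 8 when scaled without Gm26917, Gm42418 and mitochondrial genes, 8 with a trend on exon length removed, and 2 to 21 with single libraries left out. In complex I the difference was -0.51 on the log2 scale for Ndufs5, -0.37 for Ndufa10 and -0.31 for Ndufv2. In complex II it was -0.33 for Sdhc. In complex III it was -0.34 for Uqcrb, which belongs to the ubiquinol-binding part of the complex, -0.31 for Uqcrc2 and -0.28 for Uqcrh. In complex IV it was -0.26 for Cox5b, -0.36 for Cox6a1, -0.23 for Cox6c and -0.30 for Cox8a, and in complex V -0.19 for Atp5b and -0.30 for Atp5d.

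The members differed in how the 2 clones made up this mean. Uqcrb had log2 changes of 0.11 in clone 1 and 0.24 in clone 2 in 2D, and 0.06 and -0.41 in 3D, where the fall in clone 2 was called. Cox6c changed by 0.15 and 0.03 in 2D and by 0.10 and -0.37 in 3D. Uqcrc2 was called higher in both clones in 2D (0.31 and 0.29) and in neither in 3D (0.10 and -0.13), and Atp5d likewise (0.17 and 0.28 in 2D, -0.11 and -0.06 in 3D). Uqcrh changed by 0.00 and 0.40 in 2D and by -0.28 and 0.13 in 3D, so that the difference between formats was close in the clones (-0.28 in clone 1, not called, and -0.27 in clone 2). Ndufa10, Sdhc and Cox5b lie on chromosome 1, where the median over all genes in clone 2 was -0.29 in 2D and -0.53 in 3D, and the part of this in their difference was not tested.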

How the results depend on the processing

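With 2 libraries a group, the knockout counts rest on single libraries more than the counts between formats do. Leaving out each of 12 libraries in turn gave 70 to 72 nuclear members between 3D and 2D in control, 68 to 73 in clone 1 and 71 to 72 in clone 2, with 10 to 10, 9 to 10 and 9 to 9 mitochondrial members. It gave 22 to 29 nuclear and 2 to 4 mitochondrial members for clone 1 in 2D, 24 to 31 and 2 to 5 for clone 2 in 2D, 13 to 26 and 1 to 6 for clone 1 in 3D, 18 to 33 and 0 to 3 for clone 2 in 3D, and 2 to 21 and 0 to 2 for the interaction.

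The interaction called 8 nuclear members when scaled without Gm26917, Gm42418 and mitochondrial genes, 8 with a trend on exon length removed, 0 in clone 1 alone and 42 in clone 2 alone. For mitochondrial members it called 2 with no filter on low counts, 1 with DESeq2, 1 in clone 1 alone and 2 in clone 2 alone. Leaving out members that overlap another gene at all or share nearly all their sequence left 48 nuclear members. Of the mitochondrial members it left mt-Cytb alone, as most others overlap a neighbouring gene by a small part of their length. Between formats, 46, 47 and 45 of these nuclear members were called in control, clone 1 and clone 2. The mitochondrial counts were 1, 1 and 1, and could not exceed 1, so they cannot test the rise of the other mitochondrial members. For the members left, the counts were 16 and 1 for clone 1 in 2D and 19 and 0 for clone 2 in 2D. In 3D, 0 mitochondrial members were called for clone 1 and 0 for clone 2. With chromosome medians removed, clone 2 in 2D had 16 nuclear members, clone 1 in 2D had 18 and clone 1 in 3D had 16. With 3D libraries fitted alone, 5 mitochondrial members were called for clone 1.

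Results were counted once for each named member called in the main fit, comparison and setting. Of these, 4441 kept direction and call, 211 lost the call and 8 reversed. Settings that only left members out of the main fit could not change a result, so the 4441 holds some that were fixed in advance. Atp5g2 between formats in clone 1 became 0.00885 with the exon length trend removed. With chromosome medians removed, Cox7a2l became -0.058 and Atp5g1 0.092 in clone 1 in 2D, Sdhb -0.0036 and Cox5b 0.055 in clone 2 in 2D, and Atp5o 0.049, Cox6b1 -0.032 and Atp5g1 0.119 in clone 1 in 3D. The cause was not tested. The median over all genes shifted by more than 0.1 between formats with no filter (0.13 to 0.19) and with DESeq2 (0.18 to 0.22). Over 15 pairs of groups, same-numbered libraries correlated at -0.045 to 0.022 in their deviations. With the replicate number as a block, nuclear members called were 72, 71 and 71 between formats, 26 and 30 in 2D, 23 and 30 in 3D and 11 for the interaction.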
